A study of Mus musculus with 11 samples.

Results

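Potassium channel genes were examined across the cell populations of mouse small-intestinal mesenchyme. Members were taken by symbol: every gene whose name begins with Kcn, then letters and a number, together with Abcc8 and Abcc9, which encode the sulfonylurea receptors. The bulk table held 99 such names among 24969, and the single-cell matrices held 100, among 31053 genes in the whole-mesenchyme libraries and 27999 in the sorted library. Of the 99, 4 were RNAs without a protein product: Kcnq1ot1, Kcnd3os, Kcnmb4os1 and Kcnmb4os2.

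Bulk RNA sequencing had been done on 4 sorted populations with 2 libraries each. Telocytes were the GFP-high cells, and PDGFRAlo stromal cells the GFP-low cells, of the PDGFRAH2BEGFP transgenic mouse, in which a nuclear GFP reports expression of the PDGF receptor alpha gene. Blood endothelium was CD31+LYVE1- and lymphatic endothelium CD31+LYVE1+, both from C57BL/6 mice, so that strain and cell type cannot be told apart between the PDGFRA-sorted and the endothelial libraries. Droplet single-cell data came from 1 library of sorted PDGFRA-GFP cells, GFP-low to GFP-high at 2:1, and 2 libraries of whole mesenchyme. The labels repeat the 2:1 sort for the whole-mesenchyme libraries as well, which were taken as unsorted from their titles. The gut had been stripped of its muscle coat and epithelium before digestion. The labels give no age or sex, do not say whether cells were pooled over animals, and do not say whether replicates came from separate animals, so p-values measure the spread between libraries, which may be technical.

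Potassium channels let potassium leave or enter a cell and thereby hold its resting potential and set its excitability. Inward rectifiers of the Kir6 type work only together with a sulfonylurea receptor, forming channels that close when ATP is plentiful. Two-pore channels carry a background leak, voltage-gated channels repolarise the membrane, and calcium-activated channels couple potassium outflow to intracellular calcium. In the gut wall these currents are known for setting the tone of smooth muscle and vessels and the excitability of pacemaker-type cells. Several subunits, such as those of the Kcng and Kcns groups, form no channel alone and modify others.

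The 8 bulk libraries held 8549348 to 55382442 counts. Telocyte marker genes summed to 9022 and 10730 CPM (counts scaled to library size by trimmed mean of M values) in telocytes, against 861 and 951 CPM in PDGFRAlo cells, and blood endothelial markers to 16520 and 17290 CPM in blood endothelium. The PDGFRAlo libraries also held blood endothelial markers at 1002 to 2932 CPM, against 44.4 to 70.6 CPM in telocytes, and the lymphatic libraries held plasma cell markers at 66840 and 171600 CPM. The whole-mesenchyme libraries gave 6079 and 5892 cells after filtering, with median depths of 5164 and 5126 UMIs (unique molecular identifiers), and the sorted library 3822 cells with 4830 UMIs. Cell barcodes shared between libraries numbered 9 for the whole-mesenchyme pair and at most 1 for the others. Cells were clustered with all 100 potassium channel genes kept out, so these genes did not shape the classes, and a class name ending in "-like" stands for a marker pattern only.

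Of the 99 names in the bulk table, 51 had enough counts to be tested, 35 had too few, and 13 had no count in any library. No untested gene exceeded 52 counts over the 8 libraries. Potassium channel genes took 0.24% and 0.225% of all counts in telocytes, against 0.0492% and 0.0517% in PDGFRAlo cells, 0.028% and 0.0315% in blood endothelium and 0.0555% and 0.075% in lymphatic endothelium. Kcnj8 and Abcc9 together made up 77.5% and 76.5% of the potassium channel counts in telocytes, against 5.69% and 2.18% in PDGFRAlo cells. Fewer cells of a type and less RNA per cell cannot be told apart in such bulk libraries.

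Telocytes expressed the ATP-sensitive pair at the highest levels in the bulk data. Kcnj8, which encodes the pore subunit Kir6.1, lies at chr6:142564837-142571614 on the minus strand (GRCm38), and Abcc9, which encodes its sulfonylurea receptor SUR2, at chr6:142587862-142702315 on the same strand, 16247 bases away. Their promoters are shown because both genes were higher in telocytes than in PDGFRAlo cells. Each sequence is from RefSeq on GRCm38.p6, minus strand, 250 bases before to 50 after the annotated start, at chr6:142571565-142571864 for Kcnj8 and chr6:142702225-142702524 for Abcc9. Capitals mark matches on either strand to TGGGAA, the core motif of RBPJ, or to GGGCGG, the SP1 core.
Kcnj8: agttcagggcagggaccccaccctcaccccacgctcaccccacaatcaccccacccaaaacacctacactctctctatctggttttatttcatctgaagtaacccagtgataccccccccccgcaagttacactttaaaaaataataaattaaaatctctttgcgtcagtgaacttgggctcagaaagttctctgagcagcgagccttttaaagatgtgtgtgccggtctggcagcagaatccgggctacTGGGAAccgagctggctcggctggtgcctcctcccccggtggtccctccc
Abcc9: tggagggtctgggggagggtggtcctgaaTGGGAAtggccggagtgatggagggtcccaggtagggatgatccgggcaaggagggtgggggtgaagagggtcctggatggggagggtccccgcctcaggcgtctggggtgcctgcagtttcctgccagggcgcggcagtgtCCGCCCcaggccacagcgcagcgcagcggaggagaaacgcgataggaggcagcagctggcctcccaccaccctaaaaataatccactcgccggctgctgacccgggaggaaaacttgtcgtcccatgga
TGGGAA was found once in each window and GGGCGG only in the Abcc9 window, as its complement. These motifs occur in 25.6% and 35.7% of 32851 promoter windows of this length. The FOX motif TGTTTAC matched neither window on either strand, nor did the SOX motif ACAAAG, the box TATAAA or the CArG box, which occur in 3.65%, 18.7%, 13.6% and 1.63% of all windows.

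Kcnj8 was at 814 and 731 CPM in the 2 telocyte libraries, 12 and 3.60 CPM in PDGFRAlo cells, 4.14 and 6.87 CPM in blood endothelium and 147 and 226 CPM in lymphatic endothelium. Both telocyte libraries stood above every other library, the lymphatic libraries came next, and telocytes and PDGFRAlo cells did not overlap. The log2 fold change of telocytes over PDGFRAlo cells was 6.64 (SE 0.68, edgeR quasi-likelihood test, adjusted p = 0.000432). Abcc9 was at 705 and 720 CPM in telocytes, 15.1 and 7.48 CPM in PDGFRAlo cells, 2.01 and 6.82 CPM in blood endothelium and 6.07 and 5.65 CPM in lymphatic endothelium. The telocyte libraries stood alone, and lymphatic endothelium was no higher than PDGFRAlo cells. It was higher in telocytes by a log2 fold change of 5.98 (SE 0.67, edgeR, adjusted p = 0.000585). Per kilobase of exon, Kcnj8 averaged 303 CPM and Abcc9 85.1 CPM in telocytes, ahead of Kcnk2 at 30.8 CPM and Kcng4 at 21.5 CPM. Pericytes are known to use the same pair, and pericyte markers summed to 1194 and 1280 CPM in telocytes against 1968 and 937 CPM in PDGFRAlo cells, with 1 of 8 higher, 1 of 8 lower and none at 0. The pancreatic pair was hardly detected: Kcnj11 (Kir6.2) had no count in telocytes or PDGFRAlo cells and at most 4 in any library, and Abcc8 (SUR1) had no count in telocytes and at most 3 in any library.

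**Figure D1:**
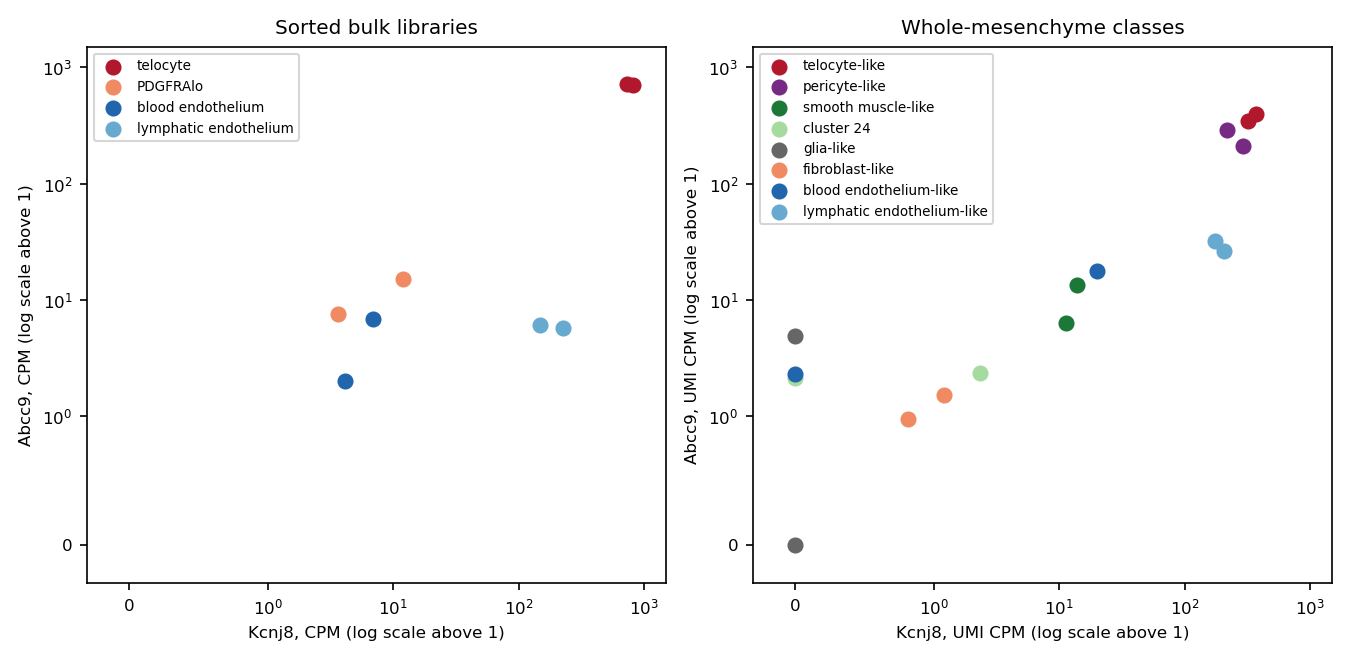
Level of Abcc9 against Kcnj8. Each point is 1 library (left, CPM of the 8 sorted bulk libraries) or 1 class or cluster in 1 whole-mesenchyme library (right, UMI CPM); both axes are logarithmic above 1. Telocytes lie at the upper right in both panels, joined on the right by pericyte-like cells, while lymphatic endothelium has Kcnj8 at 147 and 226 CPM with Abcc9 near 6 CPM.

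Between telocytes and PDGFRAlo cells, 21 of the 51 tested genes were called, 5 higher and 16 lower in telocytes. Over all 14893 genes tested, 14.9% were called, 2.77% higher and 12.1% lower. The median log2 fold change was −2.06 over the 51 genes and −0.035 over all genes tested. None of the 21 overlapped between the groups, but overlap was not counted over all tested genes, so this adds nothing to the calls. Fewer of the 21 were called when any 1 of the 4 libraries was left out. By subfamily, the calls were 2 higher and 2 lower of 9 tested inward rectifiers and sulfonylurea receptors, 1 and 6 of 13 voltage-gated subunits, 1 and 2 of 3 KCNQ genes, 1 and 1 of 8 accessory subunits, 0 and 2 of 6 two-pore channels, 0 and 2 of 8 calcium- or sodium-activated channels, and 0 and 1 of 2 EAG and ERG channels.

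Beside the pair, 3 genes rose in telocytes. Kcng4, a silent subunit that modifies other voltage-gated channels, was at 83.9 and 79.8 CPM in telocytes against 7.06 and 10.6 CPM in PDGFRAlo cells (log2 fold change 3.21, SE 0.40, adjusted p = 0.0013), and had at most 1 count in any endothelial library. Kcnq5, a channel of the M-current family, was at 5.13 and 14.8 CPM in telocytes against 0.726 and 0.785 CPM in PDGFRAlo cells (3.71, SE 0.79, adjusted p = 0.0121). Kcnip2, a calcium-binding helper of Kv4 channels, was at 3.71 and 5.81 CPM in telocytes against 0 and 0.185 CPM in PDGFRAlo cells (adjusted p = 0.0314). The telocyte libraries were above both PDGFRAlo libraries for all 3, but 2 calls rested on single libraries. The Kcnq5 call was lost without telocyte library 2 or either PDGFRAlo library (adjusted p = 0.0583 to 0.184), and the Kcnip2 call when any 1 of the 4 was left out (0.0529 to 0.16).

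Of the 16 genes lower in telocytes, 5 had their highest group mean in PDGFRAlo cells, among them Kcns3, Kcnt2, Kcng1 and Kcna2. Kcns3, another silent partner of voltage-gated channels, was at 0.0713 and 0.121 CPM in telocytes against 45.9 and 15 CPM in PDGFRAlo cells, with at most 0.293 CPM in any endothelial library. With 3 counts in telocytes, the ratio was 283-fold (95% counting interval 96.5 to 1370; adjusted p = 0.000887). Kcnt2, a sodium-activated channel, had no count in telocytes against 17.3 and 13.1 CPM in PDGFRAlo cells, and was at most 0.795 CPM in the endothelial libraries. PDGFRAlo cells were at least 151-fold higher, with 3 counts put in the telocyte group (adjusted p = 0.000803). Both PDGFRAlo libraries stood above the other 6 libraries for both genes. Among the single-cell classes and clusters, Kcns3 was highest in smooth muscle-like cells (58.9 UMI CPM), then in the unnamed cluster 7 (43.8). Kcnt2 was highest in pericyte-like cells (25.9 UMI CPM), then in fibroblast-like cells (10.2). Both were also found in clusters 2 to 8 of the sorted library of PDGFRA-GFP cells. In bulk, 4 of 8 smooth muscle markers were lower and 2 of 8 higher in telocytes, with sums of 2246 and 1595 CPM in telocytes and 893 and 504 CPM in PDGFRAlo cells. Of the pericyte markers 1 of 8 was lower and 1 of 8 higher, with sums of 1194 and 1280 CPM in telocytes and 1968 and 937 CPM in PDGFRAlo cells. None of either list was at 0, and their part in the result was not tested. Kcng1, another silent subunit, was at 0 and 0.0605 CPM in telocytes against 2.44 and 7.48 CPM in PDGFRAlo cells (adjusted p = 0.0469). The Kcng1 call was lost when any 1 of the 4 libraries was left out (adjusted p = 0.0587 to 0.218).

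In the other 11 genes lower in telocytes, the mean of blood or lymphatic endothelium was above that of PDGFRAlo cells. Kcne3, which encodes a small accessory subunit of KCNQ1, was at 0 and 0.182 CPM in telocytes, 6.20 and 6.00 CPM in PDGFRAlo cells, and 126 and 72.5 CPM in blood endothelium (adjusted p = 0.00123 for telocytes against PDGFRAlo cells). Its partner Kcnq1 was at 0.143 and 0 CPM in telocytes, 4.09 and 4.30 CPM in PDGFRAlo cells, and 18 and 18.9 CPM in blood endothelium (adjusted p = 0.00306). Kcnk5, an alkaline-activated leak channel, was at 0.926 and 0.303 CPM in telocytes, 17.0 and 12.1 CPM in PDGFRAlo cells, and 45.7 and 137 CPM in lymphatic endothelium (adjusted p = 0.00208). In all 3 the telocyte libraries were the lowest. Kcnn4, the intermediate-conductance calcium-activated channel, was at 1.78 and 0.847 CPM in telocytes against 11.1 and 15.5 CPM in PDGFRAlo cells (adjusted p = 0.00211), and Kcnk6, a leak channel, at 2.57 and 0.726 CPM against 10.9 and 20.6 CPM (adjusted p = 0.00678). Kcna5, Kcnj2 (the classical inward rectifier Kir2.1) and Kcnj15 were at or under 2.31 CPM in PDGFRAlo cells, with adjusted p of 0.0331, 0.00952 and 0.0188. Without telocyte library 2 none of these 3 was called (adjusted p = 0.209, 0.0569 and 0.0922), nor was Kcna5 without telocyte library 1 (0.0965) or PDGFRAlo library 1 (0.162), nor Kcnj15 without telocyte library 1 (0.0681). Blood endothelial markers moved with these genes: all 8 of 8 were lower in telocytes, with sums of 44.4 to 70.6 CPM in telocytes and 1002 to 2932 CPM in PDGFRAlo cells, and none was at 0. Macrophage markers did so too, 6 of 6 being lower, with sums of 17.1 and 29.8 CPM in telocytes and 202 and 497 CPM in PDGFRAlo cells and none at 0. Lymphatic endothelial markers summed to 18.2 and 7.08 CPM in telocytes and 367 and 102 CPM in PDGFRAlo cells, with 4 of 6 lower and Ccl21a at 0 in telocytes. Plasma cell markers summed to 531 and 569 CPM in telocytes and 2317 and 2524 CPM in PDGFRAlo cells, with 2 of 4 lower and none at 0. Their part in the result was not tested.

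Kcna1, Kcna2, Kcna3 and Kcnh1, also lower in telocytes, were scarce, at no more than 5.31 CPM in PDGFRAlo cells. Kcna1 and Kcna2, Shaker-type channels known from axons and glia, had 2 and 3 counts in telocytes, against 1.98 and 1.20 CPM for Kcna1 and 3.04 and 1.80 CPM for Kcna2 in PDGFRAlo cells (adjusted p = 0.0375 and 0.031). Kcna3, a lymphocyte channel, was at 0.713 and 0.182 CPM in telocytes against 2.31 and 5.31 CPM in PDGFRAlo cells (adjusted p = 0.0234). Kcnh1, of the ether-a-go-go type, was at 0.0713 and 0 CPM in telocytes against 2.51 and 0.600 CPM in PDGFRAlo cells (adjusted p = 0.034). None of these 4 calls held in every fit that left out 1 library. Kcna1 was lost when any 1 of the 4 was left out (adjusted p = 0.0565 to 0.253), Kcna2 without telocyte library 2 or either PDGFRAlo library (0.0582 to 0.20), Kcna3 without telocyte or PDGFRAlo library 2 (0.18 and 0.127), and Kcnh1 without either telocyte library or PDGFRAlo library 1 (0.0991 to 0.257). Glia markers summed to 364 and 239 CPM in telocytes and 228 and 178 CPM in PDGFRAlo cells, with 1 of 7 lower in telocytes and none at 0. T cell markers summed to 2.21 and 4.66 CPM in telocytes and 6.34 and 89.1 CPM in PDGFRAlo cells, with 1 of 4 lower. B cell markers summed to 2.21 and 2.30 CPM in telocytes and 16.1 and 77.2 CPM in PDGFRAlo cells, with 4 of 5 lower. None of either list was at 0, and the part of such cells in these calls was not tested.

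Several abundant channels were not called between the 2 PDGFRA populations. Kcnk2, which encodes the mechanosensitive leak channel TREK1, was at 116 and 189 CPM in telocytes and 89.2 and 143 CPM in PDGFRAlo cells, and the groups overlapped (log2 fold change 0.39, SE 0.47, adjusted p = 0.706). Kcnn3, the small-conductance channel SK3, was at 32.7 and 19.3 CPM in telocytes and 26.8 and 57.1 CPM in PDGFRAlo cells (adjusted p = 0.63). Kcnmb1, the smooth-muscle beta subunit of the large-conductance BK channel, was at 23.2 and 12.7 CPM in telocytes and 13.3 and 4.90 CPM in PDGFRAlo cells (adjusted p = 0.497). Its pore gene Kcnma1 was at 0.428 and 0.0605 CPM in telocytes and 4.16 and 4.71 CPM in PDGFRAlo cells, without overlap, but was not called (adjusted p = 0.115). Kcnma1 was called by DESeq2 (adjusted p = 0.0424), by edgeR with no filter on low counts (0.00865) and by edgeR on these 4 libraries alone (0.0328). Kcnq1ot1, a long antisense RNA of the imprinted Kcnq1 locus, was at 31.3 and 24.5 CPM in telocytes and 30.7 and 19.5 CPM in PDGFRAlo cells (adjusted p = 0.865).

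**Figure D2:**
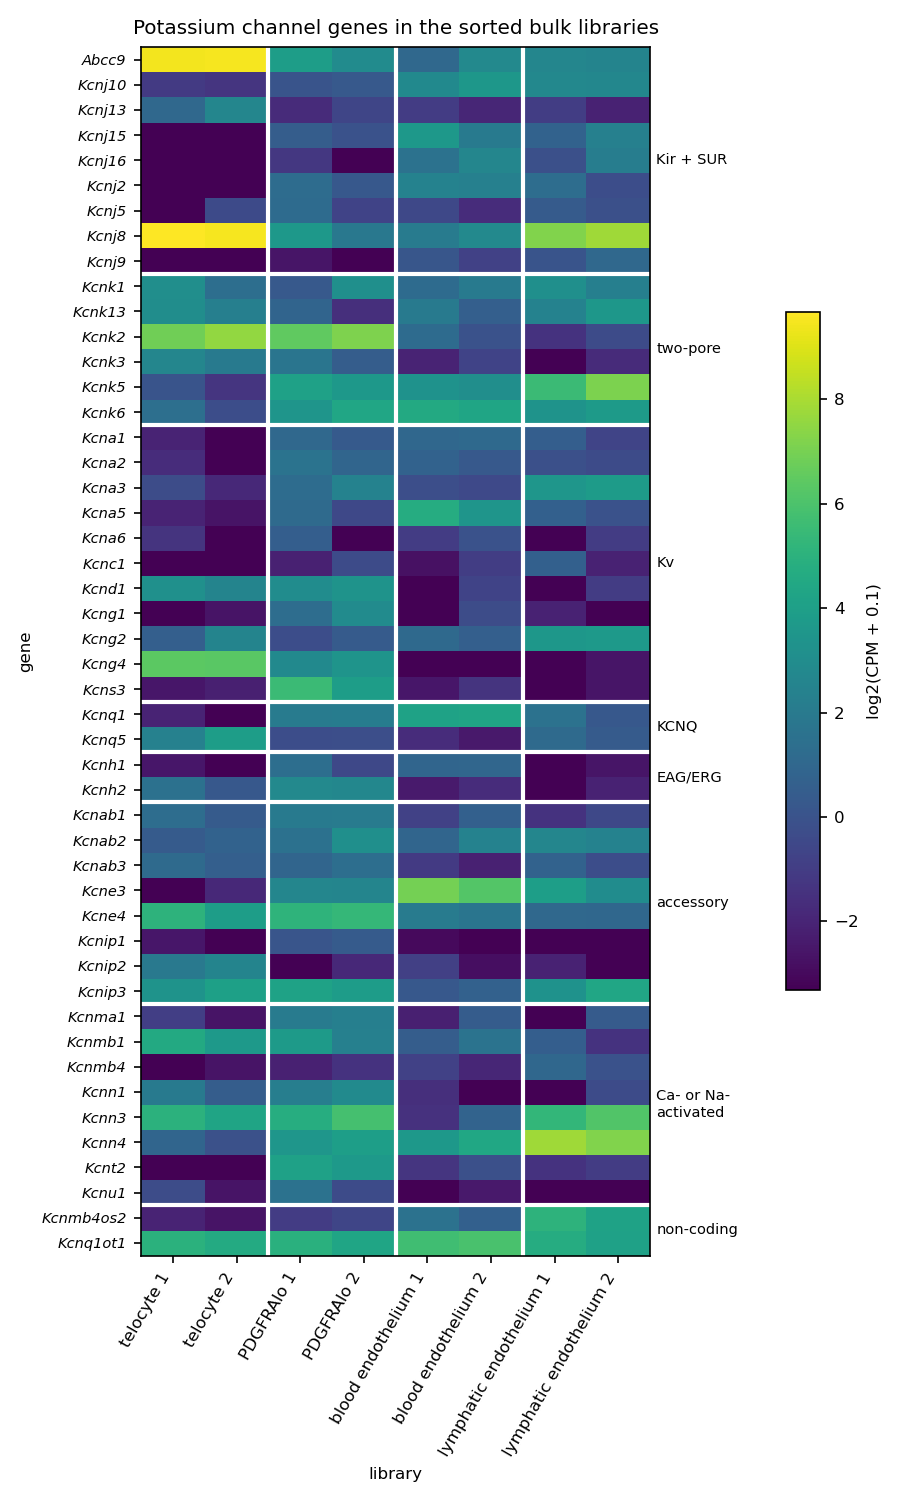
Level of 48 tested potassium channel genes in each bulk library, as log2(CPM + 0.1), with genes as rows grouped by subfamily and libraries as columns. Kcnj8, Abcc9 and Kcng4 are brightest in both telocyte columns, Kcns3 and Kcnt2 in both PDGFRAlo columns, Kcne3 in both blood endothelial columns and Kcnn4 in both lymphatic columns.

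Genes that handle calcium, cyclic GMP or sodium beside these channels were taken from a list of 34, of which 26 were tested: 4 were higher in telocytes, 5 lower and 17 were not called, where 2.77% of all tested genes were called higher and 12.1% lower. Casq2, the calcium store protein of cardiac and smooth muscle, was at 295 and 273 CPM in telocytes against 2.71 and 1.80 CPM in PDGFRAlo cells (log2 fold change 6.98, SE 0.60, adjusted p = 0.000278). Cacna1g, a T-type calcium channel, was at 65.4 and 93.7 CPM in telocytes against 3.70 and 4.85 CPM in PDGFRAlo cells, and Cacnb2, a calcium channel beta subunit, at 13.1 and 24.3 CPM against 2.57 and 2.08 CPM (adjusted p = 0.00817 and 0.0266). Gucy1b1, a subunit of the nitric oxide receptor, was at 428 and 462 CPM in telocytes against 129 and 65.5 CPM in PDGFRAlo cells (adjusted p = 0.0147). Among those lower in telocytes, Atp1b1, a beta subunit of the sodium pump, was at 0.285 and 0.605 CPM in telocytes against 3.43 and 8.18 CPM in PDGFRAlo cells (adjusted p = 0.00935), and Pln, which restrains the calcium pump of the store, at 0.784 and 1.09 CPM against 11.3 and 4.11 CPM (adjusted p = 0.0107). Telocyte and PDGFRAlo libraries did not overlap for these named genes. Smooth muscle markers also differed between the groups, summing to 2246 and 1595 CPM in telocytes and 893 and 504 CPM in PDGFRAlo cells, with 2 of 8 higher and 4 of 8 lower in telocytes and none at 0; their part in the result was not tested.

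Across the PDGFRA populations and the endothelia, 35 of the 51 genes were called, 20 higher and 15 lower in the PDGFRA populations, where 60.5% of all tested genes were called, 28.8% higher and 31.7% lower. This comparison averages 2 unlike groups on each side and shares its libraries with the other bulk comparisons. Among the 25 called genes with the highest means, those higher in the PDGFRA populations included Kcnj8, Abcc9, Kcnk2, Kcng4, Kcnn3, Kcne4, Kcns3, Kcnip3, Kcnmb1, Kcnd1, Kcnq5, Kcnn1 and Kcnh2. Those lower were Kcnn4, Kcne3, Kcnk5, Kcnk6, Kcnmb4os2, Kcnq1, Kcna5, Kcnj10, Kcng2 and Kcnj15. Kcnk2 was at 89.2 to 189 CPM in the PDGFRA libraries against 0.27 to 2.22 CPM in the endothelial libraries (log2 fold change 7.19, SE 0.46, adjusted p = 5.37e-06). Kcne4, an inhibitory accessory subunit, was at 14.8 to 40.5 CPM in the PDGFRA libraries against 1.95 to 4.11 CPM in the endothelial libraries (3.48, SE 0.34, adjusted p = 3.83e-05). In single cells Kcne4 was highest in pericyte-like cells (291 UMI CPM), then in the unnamed cluster 24 (67.8). Bulk pericyte markers summed to 937 to 1968 CPM in the PDGFRA libraries and 28.0 to 499 CPM in the endothelial libraries. Among them Rgs5 was higher in the PDGFRA populations and Higd1b lower, and their part in the result was not tested. Kcnj8 was called too (adjusted p = 0.0178), although both PDGFRAlo libraries were below both lymphatic libraries, and not without library 1 of PDGFRAlo cells (0.0771), blood (0.064) or lymphatic endothelium (0.0688). Kcng2 was lost in 7 of the 8 fits that left out 1 library (0.0503 to 0.156), and with upper-quartile scaling (0.0512), and Kcns3 was lost without telocyte library 2 (0.0503).

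Blood endothelium was then set against lymphatic endothelium. Of the 51 genes, 15 (29.4%) were called, 6 higher and 9 lower in blood endothelium. Over all tested genes 23.0% were called, 14.7% higher and 8.32% lower, so the share was not far above that of all genes. None of the 15 overlapped, but here too overlap was not counted over all tested genes. Kcne3 was at 126 and 72.5 CPM in blood endothelium against 15.7 and 7.80 CPM in lymphatic endothelium (log2 fold change 3.09, SE 0.53, adjusted p = 0.00456). Kcnq1 was at 18 and 18.9 CPM in blood endothelium against 2.83 and 1.08 CPM in lymphatic endothelium (3.28, SE 0.69, adjusted p = 0.0109). Kcna5, a Kv1 channel of vascular muscle, was at 25.9 and 10.9 CPM in blood endothelium against 1.48 and 0.874 CPM in lymphatic endothelium (3.99, SE 0.80, adjusted p = 0.0088). Also higher in blood endothelium were Kcnq1ot1, at 52.2 and 61.7 CPM against 26 and 17.5 CPM in lymphatic endothelium, and Kcnh1, at 1.77 and 1.84 CPM against 0 and 0.0672 CPM. Kcnq1ot1 lies antisense to Kcnq1, and the strand setting of the counting is not given in the sources used here, so reads of the 2 genes may not be fully separated. Pericyte markers moved with these genes, 8 of 8 being higher in blood endothelium, with sums of 352 and 499 CPM in blood endothelium and 28.0 and 48.2 CPM in lymphatic endothelium and none at 0. Their part in the result was not tested.

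Lymphatic endothelium had the higher levels of Kcnj8, Kcnk5 and Kcnn3. Kcnj8 was at 4.14 and 6.87 CPM in blood endothelium against 147 and 226 CPM in lymphatic endothelium (log2 fold change −5.09, SE 0.64, adjusted p = 0.00177). Kcnk5 was at 9.78 and 8.46 CPM in blood endothelium against 45.7 and 137 CPM in lymphatic endothelium (−3.33, SE 0.58, adjusted p = 0.00496). Kcnn3 was at 0.26 and 1.67 CPM in blood endothelium against 39.0 and 70.4 CPM in lymphatic endothelium (−5.90, SE 0.85, adjusted p = 0.0026). For these 3 the lymphatic libraries were above both blood endothelial libraries by a wide margin. Kcnn4 was at 12 and 21.4 CPM in blood endothelium against 225 and 146 CPM in lymphatic endothelium (adjusted p = 0.00215). Kcnmb4os2, an RNA antisense to the BK subunit gene Kcnmb4, was at 2.86 and 1.47 CPM against 33.7 and 17.9 CPM (adjusted p = 0.00404), and Kcna3 at 0.756 and 0.628 CPM against 11.3 and 13.7 CPM (adjusted p = 0.00577). Plasma cell markers moved with the group, 4 of 4 in the table being lower in blood endothelium, with sums of 5055 and 5153 CPM in blood and 66840 and 171600 CPM in lymphatic endothelium and none at 0. B cell markers summed to 164 and 77 CPM in blood endothelium and 2265 and 739 CPM in lymphatic endothelium, with 4 of 5 lower in blood endothelium. Macrophage markers summed to 2614 and 1859 CPM in blood endothelium and 7045 and 9054 CPM in lymphatic endothelium, with 3 of 6 lower, and none of either list was at 0. Their part in the result was not tested. Kcnip3, Kcnq5 and Kcng2 were the other 3 lower in blood endothelium, with adjusted p of 0.00295, 0.0204 and 0.0239. Without lymphatic library 2, 9 genes in place of 15 were called, the lost ones being Kcna5, Kcng2, Kcnh1, Kcnq1, Kcnq1ot1 and Kcnq5 (adjusted p 0.0818, 0.105, 0.129, 0.0805, 0.138 and 0.0558). Kcng2 and Kcnh1 were also lost when any 1 of the other 3 libraries was left out (0.0613 to 0.131), Kcnq5 without blood library 2 or lymphatic library 1 (0.0819 and 0.0825), and Kcnq1ot1 without blood library 2 (0.0697).

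In the whole-mesenchyme cells, 18 of 100 names had no UMI in any kept cell, 36 were tested between classes, and 41 had 50 or more UMIs. UMI counts tag one end of a transcript and were not divided by length. The genes with the highest UMI CPM were Kcnk2, Abcc9 and Kcnj8 in telocyte-like cells, Kcnq1ot1, Kcne4 and Kcnj8 in pericyte-like cells, Kcnk3, Kcnq1ot1 and Kcnma1 in smooth muscle-like cells, Kcna1, Kcna2 and Kcna6 in glia-like cells, Kcnk2, Kcnq1ot1 and Kcnn3 in fibroblast-like cells, Kcnq1ot1 and Kcne3 in blood endothelium-like cells, and Kcnn3, Kcnk5 and Kcnj8 in lymphatic endothelium-like cells. Kcnq1ot1 was in every class, at 57.7 to 321 UMI CPM.

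**Figure D3:**
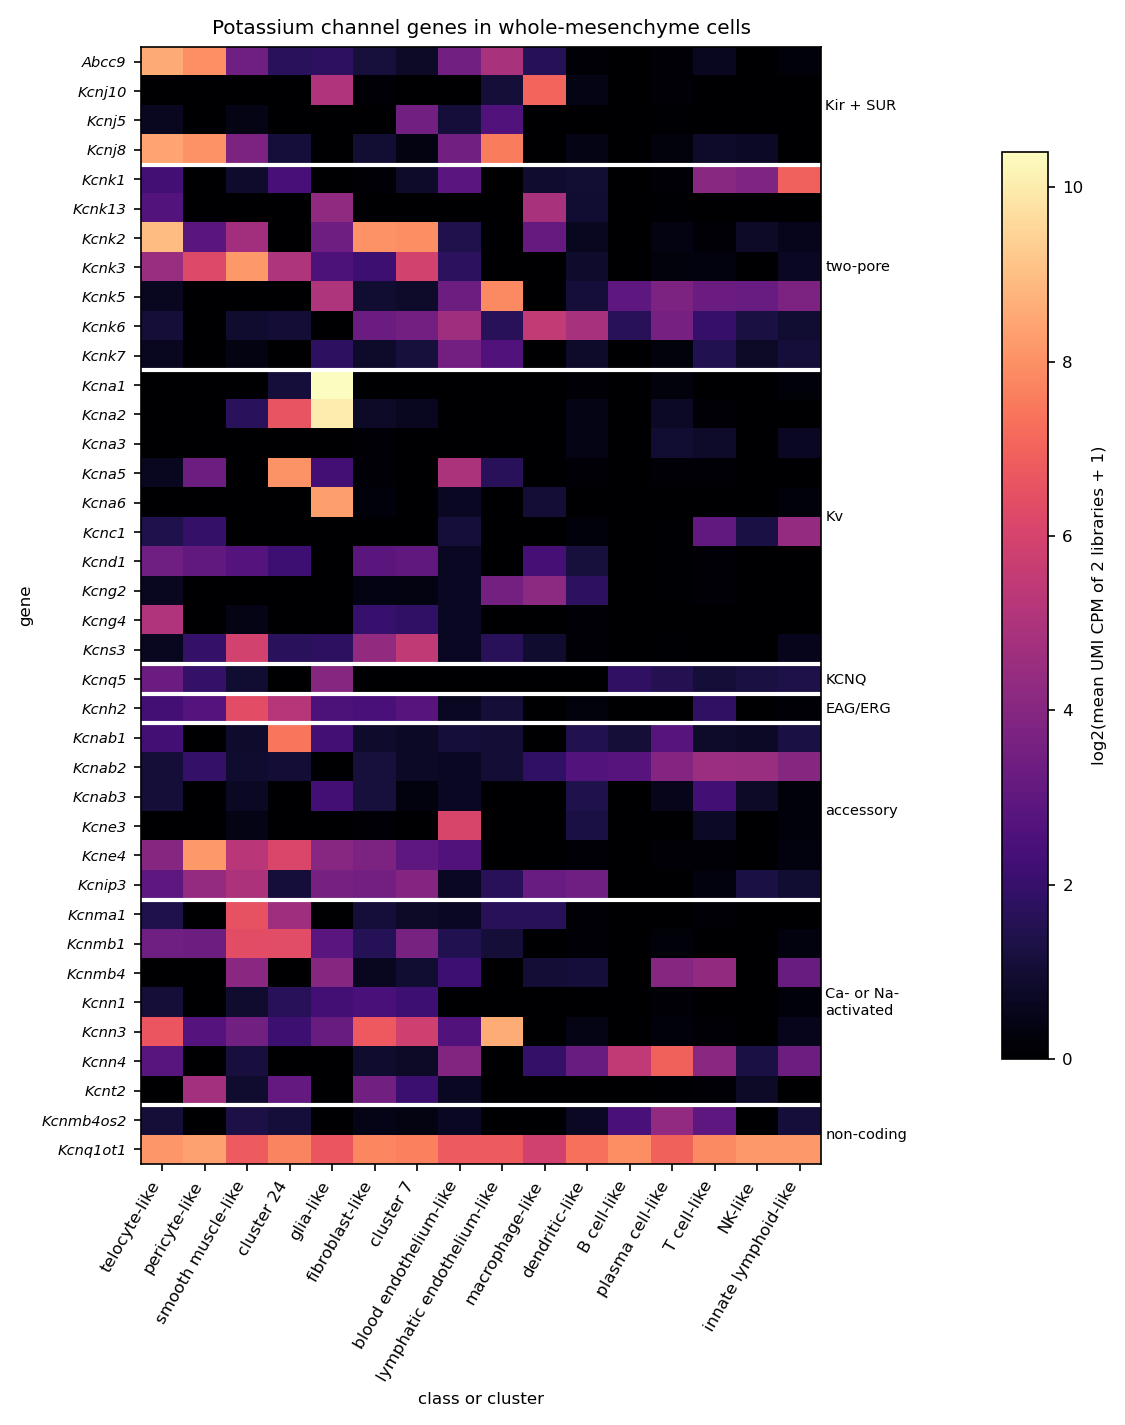
Mean level of 38 potassium channel genes with 50 or more UMIs in the named classes and in clusters 7 and 24 of the whole-mesenchyme libraries, as log2(UMI CPM + 1) over 2 libraries, with genes as rows grouped by subfamily. Kcna1, Kcna2 and Kcna6 are brightest in glia-like cells, Kcnk3, Kcnma1 and Kcnh2 in smooth muscle-like cells, Kcne4 in pericyte-like cells, Kcnk5 and Kcnn3 in lymphatic endothelium-like cells and Kcnj10 in macrophage-like cells.

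Kcnj8 and Abcc9 were expressed together in telocyte-like and pericyte-like cells. Kcnj8 was at 370 and 323 UMI CPM in the 2 telocyte-like samples, 293 and 219 in pericyte-like, 208 and 176 in lymphatic endothelium-like, 11.4 and 13.9 in smooth muscle-like and 1.21 and 0.813 in fibroblast-like cells. Abcc9 was at 398 and 344 UMI CPM in telocyte-like, 213 and 291 in pericyte-like, 26 and 31.9 in lymphatic endothelium-like, 6.25 and 13.3 in smooth muscle-like and 1.52 and 0.976 in fibroblast-like cells. Telocyte-like and pericyte-like samples were high for both genes, and lymphatic endothelium-like samples for Kcnj8. Of 235 telocyte-like cells, 177 (75.3%) had a Kcnj8 UMI, 184 (78.3%) an Abcc9 UMI and 153 had both, at a median depth of 7487 UMIs. Of 69 pericyte-like cells, 40 (58.0%) had each gene and 26 both, at 4371 UMIs. Of 165 lymphatic endothelium-like cells, 86 (52.1%) had Kcnj8 and 19 (11.5%) Abcc9. Innate lymphoid-like cells, which should lack the pair, had Kcnj8 in 0 and Abcc9 in 1 of 2171 cells, at 3658 UMIs. Thinned to 2000 UMIs a cell, Kcnj8 was found in 40.5% of telocyte-like and 40.3% of pericyte-like cells, and Abcc9 in 48.3% of telocyte-like and 35.8% of pericyte-like cells, leaving out 3 and 2 shallower cells. In blood endothelium-like cells all 17 Kcnj8 UMIs came from 6 cells of library 1, of which 5 also held Abcc9, and library 2 had none.

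The sorted library, which has no replicate and was not tested, gave the same pair in 2 of its 11 clusters. Intervals there are exact 95% Poisson intervals and cover counting error only. Cluster 0, telocyte-like by its markers and led by Trp53i11, Gadd45a and Wif1, held 627 cells with Kcnj8 at 812 UMI CPM (782 to 844) and Abcc9 at 315 (296 to 335). Cluster 1, with 541 cells, passed 8 of 9 telocyte markers and was led by the Paneth cell transcript Defa24. The cluster was left unnamed because its leading genes held more smooth muscle markers (Tagln and Acta2) than telocyte markers (Ednrb). It held Kcnj8 at 654 UMI CPM (621 to 688) and Abcc9 at 206 (188 to 225). Kcnj8 was found in 90.7% of cells in cluster 0 and 81.9% in cluster 1, against 1.84% to 4.41% in clusters 2 to 9, and in 4 of 29 cells of cluster 10. Kcns3 had 1 UMI and Kcnt2 2 UMIs in all of cluster 0, and 3 and 1 in cluster 1. In clusters 2 to 8, Kcns3 was at 3.93 to 48.0 UMI CPM and Kcnt2 at 1.88 to 13.9. Clusters 9 and 10 had no Kcns3 UMI, and 5 and 1 Kcnt2 UMIs. Kcnk2 was at 731 UMI CPM (702 to 761) in cluster 0 and 541 (512 to 572) in cluster 1, and at 113 to 457 in the other clusters.

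Telocyte-like cells were set against fibroblast-like cells over both libraries. Of 36 tested genes 18 were called, 12 higher and 6 lower in telocyte-like cells, where 29.4% of all 11891 tested genes were called, 11.5% higher and 17.9% lower. Log2 fold changes were 8.04 for Kcnj8 (SE 0.23, adjusted p = 9.92e-31) and 7.85 for Abcc9 (SE 0.21, adjusted p = 2.03e-32). Kcng4 was at 34 and 30.03 UMI CPM in telocyte-like cells against 3.64 and 2.44 in fibroblast-like cells (log2 fold change 3.08, SE 0.42, adjusted p = 9.91e-08). Kcnk2 was at 488 and 516 UMI CPM in telocyte-like cells against 245 and 269 in fibroblast-like cells (0.68, SE 0.08, adjusted p = 1.48e-09). Kcnk3, the acid-sensitive leak channel TASK1, was at 14.3 and 28.9 UMI CPM in telocyte-like cells against 3.79 and 2.93 in fibroblast-like cells (2.36, SE 0.38, adjusted p = 1.65e-06). The samples of the 2 classes did not overlap for these genes.

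Among the lower genes, Kcnt2 had no UMI in telocyte-like cells against 10.6 and 9.76 UMI CPM in fibroblast-like cells, which were at least 6.16-fold higher (adjusted p = 3.42e-05). Kcns3 had 1 UMI in telocyte-like cells against 21.1 and 17.4 UMI CPM in fibroblast-like cells, a 35.0-fold ratio (counting interval 6.22 to 1390; adjusted p = 1.73e-07). Kcnk6 was lower in telocyte-like cells too, by a ratio of 8.03 (2.17 to 67.1; adjusted p = 0.000334). Kcnn3 was at 113 and 83.4 UMI CPM in telocyte-like cells against 110 and 105 in fibroblast-like cells, a log2 fold change of −0.42 (SE 0.13, adjusted p = 0.0105), with overlapping samples. DESeq2 did not call Kcng4 (adjusted p = 0.841) or Kcnn3 (0.531). A further 6 called genes were higher and rested on 3 to 18 UMIs in telocyte-like cells. One of them, named after its values were seen because the bulk data also called it, was Kcnq5, with 8 UMIs in each telocyte-like sample and none in fibroblast-like cells. Fibroblast-like cells and the PDGFRAlo sort are not the same population, so the bulk and single-cell comparisons are set side by side only.

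Smooth muscle-like cells carried the BK channel. Of 36 tested genes 19 were called, 12 higher and 7 lower than in fibroblast-like cells, where 37.7% of all tested genes were called, 15.6% higher and 22.1% lower. Kcnma1 was at 99.5 and 86.2 UMI CPM in smooth muscle-like cells against 0.911 and 1.46 in fibroblast-like cells (log2 fold change 6.02, SE 0.28, adjusted p = 4.13e-22). Its beta subunit Kcnmb1 was at 85.3 and 83.6 UMI CPM against 1.97 and 1.95 (5.17, SE 0.28, adjusted p = 4.24e-20), and Kcnmb4, another beta subunit, at 16.5 and 16.6 against 0.911 and 0.163 (4.56, SE 0.45, adjusted p = 9.38e-12). The muscle-like samples were far above the fibroblast-like ones for all 3 subunits. Kcnk3 was at 290 and 283 UMI CPM against 3.79 and 2.93 (6.17, SE 0.15, adjusted p = 6.56e-33), and Kcnh2, which encodes the ERG channel, at 69.3 and 96.8 against 4.70 and 4.23 (3.97, SE 0.25, adjusted p = 2.96e-18). Kcnj8 and Abcc9 were higher than in fibroblast-like cells by log2 fold changes of 3.33 (SE 0.51) and 2.65 (SE 0.52), on 41 and 31 UMIs. Kcnj8 was found in 30 of 480 cells and both genes in 8. Lower in smooth muscle-like cells were Kcnk2 at 29.0 and 21.2 UMI CPM against 245 and 269 (−3.55, SE 0.13) and Kcnn3 at 6.25 and 13.9 against 110 and 105 (−3.66, SE 0.19), with adjusted p of 8.13e-27 and 2.5e-21. Kcnt2, Kcnk6 and Kcng4 had 1 to 3 UMIs in smooth muscle-like cells and were called lower (adjusted p = 1.6e-05, 4.5e-06 and 0.0163). The other 7 called genes ranged in log2 fold change between −1.20 and 3.88. DESeq2 did not call Kcng4 (adjusted p = 0.813). The BK subunit genes were not particular to smooth muscle-like cells. Kcnmb4 was highest in T cell-like cells, at a mean of 18.9 UMI CPM against 16.5 in smooth muscle-like cells. The unnamed cluster 24 came second for Kcnma1 (24.3 against 92.9) and for Kcnmb1 (81.4 against 84.4).

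Pericyte-like cells combined the ATP-sensitive pair with Kcne4. Of 36 tested genes 10 were called against fibroblast-like cells, 6 higher and 4 lower, where 21.1% of all tested genes were called, 8.3% higher and 12.8% lower. Kcne4 was at 279 and 303 UMI CPM in pericyte-like cells against 11.2 and 14.0 in fibroblast-like cells (log2 fold change 4.20, SE 0.34, adjusted p = 6.44e-14). The log2 fold changes of Kcnj8 and Abcc9 were 7.54 (SE 0.44) and 7.28 (SE 0.41), with adjusted p of 1.08e-18 and 1.8e-19, and Kcnk3 was higher by 4.13 (SE 0.51, adjusted p = 8.55e-09). Kcnk2 and Kcnn3, with 2 UMIs each in pericyte-like cells, were lower by ratios of 40.4 (11.2 to 334) and 16.9 (4.68 to 140). Kcnh1 and Kcna5, called on 12 and 3 UMIs, completed the higher genes and fall under the limit of 20 UMIs used for naming. The combination was not particular to pericyte-like cells. Clusters 0 and 1 of the sorted library, which held the pair, had Kcne4 at 26.3 (21.0 to 32.5) and 19.9 UMI CPM (14.5 to 26.5).

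Against smooth muscle-like cells, pericyte-like cells differed in 15 of 36 genes, 7 higher and 8 lower, where 16.9% of all tested genes were called, 7.96% higher and 8.98% lower. Higher were Kcnj8 (log2 fold change 4.21, SE 0.35, adjusted p = 3.76e-13), Abcc9 (4.64, SE 0.36, adjusted p = 1.77e-14), Kcne4 (2.81, SE 0.33, adjusted p = 2.91e-09) and Kcnq1ot1 (1.42, SE 0.21, adjusted p = 4.62e-07). The 3 BK subunit genes were lower: Kcnma1 had no UMI in pericyte-like cells, so that smooth muscle-like cells were at least 9.8-fold higher (adjusted p = 1.53e-06). Kcnmb4 had none either (at least 1.73-fold, adjusted p = 0.0223), and Kcnmb1 had 3 UMIs, a ratio of 8.87 (3 to 43.3; adjusted p = 0.000398). Kcnk3 was at 66.0 and 84.0 UMI CPM in pericyte-like cells against 290 and 283 in smooth muscle-like cells (−2.05, SE 0.27, adjusted p = 6.38e-08). Kcns3 and Kcnh2, with 1 and 2 UMIs in pericyte-like cells, were lower by ratios of 18.6 (3.3 to 739) and 12.9 (3.54 to 107), with adjusted p of 0.00042 and 0.000202. Samples of the 2 classes did not overlap for any of these 10 genes. DESeq2 did not call Kcne4, Kcnmb1 or Kcnmb4 (adjusted p = 0.235, 0.0736 and 0.0609). The pericyte-like class held 30 and 39 cells, which limits the depth of the genes at 0.

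**Figure D4:**
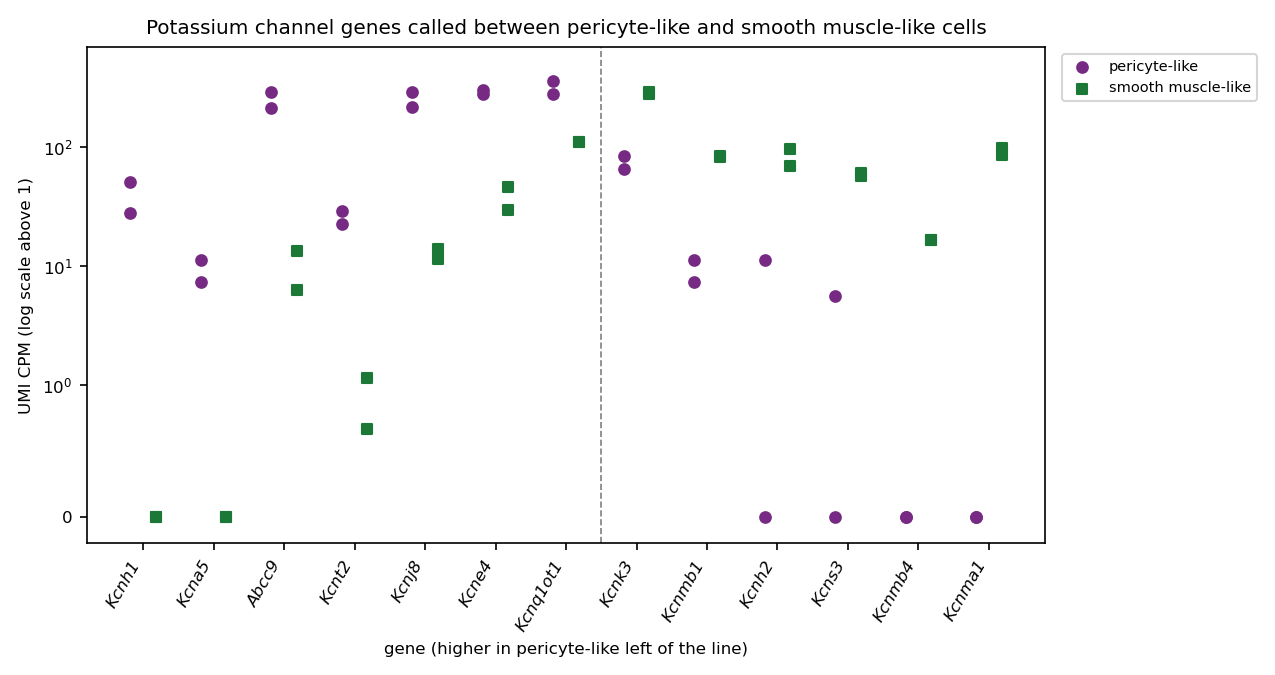
UMI CPM of 13 potassium channel genes called between pericyte-like cells (circles, left of each pair) and smooth muscle-like cells (squares), 1 point for each of the 2 whole-mesenchyme libraries; the axis is logarithmic above 1. The 7 genes left of the dashed line, Kcnj8, Abcc9 and Kcne4 among them, are higher in pericyte-like cells, and Kcnma1 and Kcnmb4 lie at 0 in them.

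A second contractile cluster, number 24 with 151 cells, was left unnamed: it passed 8 of 8 pericyte markers, yet its leading genes were Myl9, Acta2, Mustn1, Tagln and Pln. Its cells held Kcna5 at 315 and 222 UMI CPM, Kcnab1 at 181 and 170, Kcna2 at 88.2 and 105 and Kcnmb1 at 69.3 and 93.4. Kcna5 encodes a voltage-gated channel of vascular smooth muscle, and Kcnab1 the beta subunit that accompanies Kv1 channels. Kcna5 had no UMI in smooth muscle-like cells and 7.33 and 11.2 UMI CPM in pericyte-like cells, and Kcnab1 had 1.71 and 0 UMI CPM and no UMI in those classes. Kcnj8 was found in 1 and Abcc9 in 2 of its 151 cells at a median depth of 5748 UMIs, against 58.0% of pericyte-like cells. Kcnab1, Kcna2 and Kcnmb1 were picked with their values in view, and no test was run on the cluster.

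Glia-like cells expressed Shaker-type channels. Of 36 tested genes 13 were called against fibroblast-like cells, 8 higher and 5 lower, where 24.6% of all tested genes were called, 9.58% higher and 15% lower. Kcna1 was at 1282 and 1423 UMI CPM in glia-like cells and had no UMI in fibroblast-like cells, at least 5670-fold higher (adjusted p = 4.35e-29). Kcna2 was at 1050 and 993 UMI CPM against 0.607 and 0.813 (log2 fold change 10.00, SE 0.25, adjusted p = 6.96e-30). Kcna6 was at 294 and 336 UMI CPM against 0.304 and 0, a ratio of 1970 (533 to 16500; adjusted p = 7.83e-19). Of 66 glia-like cells, 62 had Kcna1, 61 had Kcna2 and 54 had Kcna6, and no other class or cluster reached 3 UMI CPM of Kcna1. DESeq2 did not call Kcna1 (adjusted p = 0.158), Kcna6 (0.361) or, among the lower genes, Kcns3 (0.136), and Kcns3 was also lost with doublets kept (0.118). Kcna1 and Kcna6 are neighbours on chromosome 6, 61944 bases apart, with Kcna5 104984 bases from Kcna1, and Kcna5 was at 0 and 7.82 UMI CPM in glia-like cells. Among those lower in glia-like cells were Kcnk2, Kcnn3, Kcns3 and Kcnq1ot1, with 0 to 16 UMIs in a sample. The other 5 higher genes rested on 5 to 11 UMIs. One of these is named after its values were seen: Kcnj10, which encodes Kir4.1, the inward rectifier known from glia, had 7 and 4 UMIs in glia-like cells and 1 in fibroblast-like cells (ratio 418, 60.7 to 18000; adjusted p = 2.39e-07).

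The endothelial classes gave 11 called genes of 36, 7 higher and 4 lower in blood endothelium-like cells, where 26.3% of all tested genes were called, 15.5% higher and 10.8% lower. Kcne3 was at 65.3 and 67.7 UMI CPM in blood endothelium-like cells and had no UMI in lymphatic endothelium-like cells, at least 20.7-fold higher (adjusted p = 3.87e-08), and Kcnq1 had 19 and 23 UMIs against none, at least 7.61-fold (adjusted p = 0.000284). Kcna5 was at 34.4 and 25.2 UMI CPM in blood endothelium-like cells against 4.33 and 0 in lymphatic endothelium-like cells, a ratio of 13.9 (3.65 to 118; adjusted p = 0.000581). Kcnk6 was higher by a ratio of 11.4 (2.97 to 97.4). DESeq2 did not call Kcne3, Kcnq1 or Kcna5 (adjusted p = 0.198, 0.658 and 0.33). Lower in blood endothelium-like cells were Kcnn3 at 4.75 and 5.74 UMI CPM against 403 and 374 in lymphatic endothelium-like cells (log2 fold change −5.98, SE 0.27, adjusted p = 5.15e-23), Kcnk5 at 9.49 and 9.18 against 255 and 204 (−4.40, SE 0.28, adjusted p = 1.46e-17) and Kcnj8 at 20.2 and 0 against 208 and 176 (−4.06, SE 0.34, adjusted p = 8.73e-14). These 7 genes had the same direction in the bulk libraries, except that Kcnk6 was not called there (adjusted p = 0.277). Kcnn4 and Kcnk1 went the other way. Kcnk1, named after its values were seen, had 11 UMIs in blood endothelium-like cells and none in lymphatic endothelium-like cells (adjusted p = 0.0251). That call was lost with doublets kept (0.0696). In bulk, Kcnk1 averaged 1.39 CPM per kilobase of exon in blood and 3.01 in lymphatic endothelium, and was not called. Kcnn4 had 12 UMIs in each blood endothelium-like sample and none in lymphatic endothelium-like cells, at least 4.35-fold higher (adjusted p = 0.00779). The bulk lymphatic libraries had the higher level of Kcnn4. In the single cells, Kcnn4 was at 129 and 119 UMI CPM in plasma cell-like cells, and plasma cell markers reached 171600 CPM in a bulk lymphatic library; the part of such cells in the bulk level was not tested.

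Some potassium channel genes were also found in immune classes of the whole-mesenchyme libraries, though not in these classes alone. Kcnj10 was at 137 and 129 UMI CPM in macrophage-like cells, in 93 of 270 cells, against 33.7 and 31.3 UMI CPM in glia-like cells. Kcnk1, the leak channel TWIK1, was at 130 and 114 UMI CPM in innate lymphoid-like cells, in 714 of 2171 cells, and at 17.8 and 14.4 in T cell-like cells. Kcnn4 was found in 84.8% of 1557 plasma cell-like cells at a median depth of 22213 UMIs, and Kcnmb4os2 was at 19.1 and 17.5 UMI CPM there. The 2 libraries gave close values for each of these genes. These classes were not compared by a test for these genes.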

How the data were processed

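Bulk values are whole-number counts per gene as deposited by the authors. The submitters' processing notes name STAR and mm10; the counter and its strand setting were not stated. Single-cell values are UMI counts from the authors' deposited filtered matrices, for which those notes name Cell Ranger (2.1.1, sorted cells; 3.0.2, whole mesenchyme). Names that had become dates, 26 in number and 0.131% to 0.523% of counts, were dropped. One edgeR 4.0.16 model (R 4.3.3) of the bulk group means, after filterByExpr (14893 genes) and TMM scaling, had 4 residual degrees of freedom and a biological coefficient of variation of 0.381. All calls are from edgeR's quasi-likelihood test with Benjamini-Hochberg adjustment over every tested gene, under 0.05.

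Cells needed 500 genes and under 10% mitochondrial UMIs. Doublets (147, 148 and 68 in whole mesenchyme 1, whole mesenchyme 2 and the sorted library) were removed at a scrublet score of 0.2, set after the scores were seen. Clustering used scanpy 1.11.5 and leidenalg 0.10.2 (resolution 1, 30 components, 15 neighbours, 2000 variable genes) without the 100 genes studied. UMIs summed over each class in each whole-mesenchyme library, for 14 classes, entered edgeR with library as a block (11891 genes, 13 residual degrees of freedom, biological coefficient of variation 0.0636). Where a group had no count, 3 counts over the group replaced it in a fold. Ratios against 1 to 3 counts carry exact 95% intervals of counting error only.

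The members and lists were chosen with earlier results of these data known. Bulk genes were named where called and at 1 CPM in the higher group, up to 25 a comparison, plus 8 fixed genes; single-cell genes where called with 20 UMIs in the higher class, up to 12 by fold, plus the top 3 of a class. Coordinates and exon lengths come from GENCODE on GRCm38, promoters from RefSeq. The bulk test was tried on simulated data for telocytes against PDGFRAlo cells, and the single-cell test for telocyte-like against fibroblast-like cells. The other comparisons were not simulated. Alternatives were DESeq2 1.42.0, other scaling, no low-count filter, other cluster, doublet and cell filters, a replicate block and leaving out each library. A few genes that count among those tested or called are not reported here by name or value.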

Additional observations from a re-analysis of the deposited data

How the results depend on the processing

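Counts of potassium channel genes called moved most when 1 bulk library was left out: between 10 and 14 for telocytes against PDGFRAlo cells (21 with all libraries), 9 and 13 for blood against lymphatic endothelium (15), and 30 and 32 for the PDGFRA populations against endothelium (35). The cause was not tested beyond there being fewer samples. With the replicate block, which no label supports (correlations of same-numbered deviations between −0.103 and 0.195 over the 6 pairs of groups, 0.0977 for telocytes and PDGFRAlo cells and 0.195 for blood and lymphatic endothelium), the counts were 20, 15 and 33. DESeq2 gave 25, 15 and 37, and no low-count filter 27, 17 and 35. Upper-quartile scaling put the median of all genes at −0.00763 between blood and lymphatic endothelium, against 0.119 with TMM. Calls kept under every alternative numbered 10 of 21, 9 of 15 and 26 of 35. In single cells, leaving out a library gives values without a test: Kcnmb1 in telocyte-like over fibroblast-like cells was at a log2 difference of −0.11 without library 1 and 2.75 without library 2, and Kcnc1 at 3.67 and 0. No replicate block gave 18, 19, 10, 14, 15 and 11 calls for telocyte-like, smooth muscle-like, pericyte-like and glia-like cells against fibroblast-like cells, pericyte-like against smooth muscle-like and blood against lymphatic endothelium-like cells, and DESeq2 gave 14, 17, 9, 9, 10 and 8. Depth limits the classes of 69 pericyte-like and 66 glia-like cells most.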
